A study of Mus musculus with 8 samples.

Results

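Dentate granule cell markers are genes that the granule neurons of the dentate gyrus transcribe at much higher levels than other hippocampal neurons. The 10 genes described here, Prox1, C1ql2, Dsp, Tdo2, Lct, Plk5, Glis3, Sema5b, Trpc6 and Stxbp6, were taken by name from the 19505 genes that the platform's probe table names. Each was read by 1 probe set. Hippocampal RNA was measured in 8 mice, with 1 array for each. All belonged to B6.Cg-Tg(APPswe)E1-2Dbo/J and were 18 to 20 months of age. Before tissue was taken they went through the Morris water maze, a swimming task of spatial memory, and the labels call memory impaired in 4 and intact in 4. All 8 carry the amyloid precursor protein transgene and there is no group without it, so the comparison is between transgenic mice that differ in memory. Neither the transgene's promoter nor the sex of the mice is stated in the labels.

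Granule cells are the principal neurons of the dentate gyrus. They receive the perforant path from the entorhinal cortex and send mossy fibre axons to CA3 pyramidal cells and to hilar mossy cells. They are among the few neurons that are still born in the adult rodent brain, and the homeodomain protein Prox1 is needed for their identity. In mice with a mutant amyloid precursor protein, granule cells are known for the loss of the calcium buffer calbindin. Whole hippocampus holds many other cells, so that fewer granule cells and less RNA per granule cell cannot be told apart in these data.

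Of the 10 genes, 9 passed the floor of 5.33 on the log2 scale, below which the dimmest 25% of genes were left out. Tdo2 did not pass, and its mean over the 8 mice was 5.22. Values are log2 expression after robust multi-array averaging (RMA), and a difference of 1 is a doubling. Set against 5222 intron probe sets that serve as a negative control on this array, the means of Prox1 and Stxbp6 were above 98.6% and 98.8% of them. Those of C1ql2, Sema5b, Glis3, Plk5, Trpc6 and Dsp were above 97.4%, 96.4%, 96.1%, 94.0%, 93.9% and 91.9%. Lct stood above 89.1% and Tdo2 above 48.9%, so that the signal of Tdo2 was not separated from that background.

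None of the markers passed the test between the memory groups. Of the 9 tested, 0 passed an adjusted p of 0.05 in limma, where 0% of all 14628 genes did. Also 0 of the 9 had an unadjusted p under 0.05, against 4.68% (685) of all genes, and in 0 of the 9 were the impaired and intact values apart, against 2.58% of all genes. Means were lower in the impaired group for 4 markers and higher for 5, and 52.9% of all genes were lower. The median difference of the markers, impaired minus intact, was 0.014, beside -0.0083 over all genes tested. The unadjusted 95% interval of a marker's difference reached a median of 0.28 to either side, with the narrowest interval for Plk5. In the accounts below, differences are log2 values, impaired minus intact, and adjusted p-values are those of limma over all genes tested.

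The upstream sequences of Prox1, the defining factor of these cells, and of Dsp and Stxbp6, the pair of markers that varied most closely together between mice, are shown for reference. Each is the 250 bases before a RefSeq start of the GRCm38.p6 build, written 5′ to 3′ on the strand of the gene. Capitals mark the motifs searched on both strands, which were the GC box spelled GGGCGG, the TATA box spelled TATAAA, an E-box of NeuroD-type factors spelled CAGATG and the cAMP response element spelled TGACGTCA. The Prox1 window is chr1:190170828-190171077 on the minus strand, that of Dsp is chr13:38151044-38151293 on the plus strand and that of Stxbp6 is chr12:45074484-45074733 on the minus strand.
Prox1: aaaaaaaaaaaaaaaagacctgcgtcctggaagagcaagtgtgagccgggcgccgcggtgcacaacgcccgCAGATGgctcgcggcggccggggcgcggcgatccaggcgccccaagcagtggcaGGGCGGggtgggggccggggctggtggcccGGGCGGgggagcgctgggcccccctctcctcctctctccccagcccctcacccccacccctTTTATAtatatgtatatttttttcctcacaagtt
Dsp: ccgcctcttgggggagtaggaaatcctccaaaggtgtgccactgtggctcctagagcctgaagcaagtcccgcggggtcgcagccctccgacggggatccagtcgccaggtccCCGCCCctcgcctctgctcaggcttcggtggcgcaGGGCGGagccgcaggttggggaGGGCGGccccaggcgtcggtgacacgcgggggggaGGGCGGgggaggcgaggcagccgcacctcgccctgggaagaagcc
Stxbp6: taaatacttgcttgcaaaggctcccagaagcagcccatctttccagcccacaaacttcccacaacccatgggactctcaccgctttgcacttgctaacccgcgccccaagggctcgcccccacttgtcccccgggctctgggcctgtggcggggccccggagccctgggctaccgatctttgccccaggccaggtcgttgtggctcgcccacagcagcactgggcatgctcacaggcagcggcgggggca

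The GC box stood 4 times in the Dsp window, 2 times in that of Prox1 and 0 times in that of Stxbp6. The Prox1 window also held 1 TATA box, on the opposite strand, and 1 NeuroD E-box. All 10 markers had an entry in the RefSeq table, with 11 windows in all, since Prox1 has 2 starts there. Among these 11 windows the GC box was found in 5, the TATA box in 2, the NeuroD E-box in 1 and the cAMP response element in 0. In all 32851 windows of the table the shares were 32.7%, 12.4%, 14.4% and 1.55%. The share of G and C was 72.4% for Dsp, 65.2% for Stxbp6 and 64.8% for the Prox1 window shown, but 42.8% for Lct and 46.4% for Tdo2, with a median of 52.4% over the table. A match is a description of these letters and says nothing of binding.

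Prox1, the homeodomain factor that specifies and maintains granule cells and is also made by some interneurons, had nearly the same mean in both groups. Its values were 9.50, 9.51, 10.04 and 10.02 in impaired mice 1 to 4 and 9.73, 9.70, 9.76 and 9.81 in intact mice 1 to 4. The 4 impaired values thus formed a low and a high pair that lay to either side of all 4 intact values. The means were 9.77 ± 0.30 (SD, n = 4) and 9.75 ± 0.047 (SD, n = 4), a difference of 0.014 with a 95% interval from -0.28 to 0.31 (limma, adjusted p = 0.996). Its sign was not stable, as the difference was -0.075 without impaired mouse 3 and 0.10 without impaired mouse 1.

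Glis3, a Krüppel-like zinc finger factor, had the smallest p among the markers. It stood at 8.24, 8.44, 8.41 and 8.11 in impaired mice 1 to 4 and at 8.13, 7.97, 8.24 and 8.01 in intact mice 1 to 4. Impaired mice 2 and 3 were above every intact mouse, while impaired mouse 4 lay within the intact range. The difference was 0.21 with a standard error of 0.10, or 1.16-fold higher in the impaired group (limma, unadjusted p = 0.0602, adjusted p = 0.961), and the exact two-sided permutation test gave p = 0.143. With each mouse left out in turn the difference ran from 0.16 to 0.27. Of 6 related Glis and Gli factors above the floor, 0 passed. Glis2 had the smallest p of them and differed by -0.24 (standard error 0.11).

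Other transcription factors of hippocampal projection neurons, among them Emx2 and Lef1, gave 0 calls among the 6 of 9 listed that were above the floor. Emx2 differed by -0.10 (standard error 0.12) and Lef1 by 0.29 (standard error 0.32). Lef1 is also a marker of the thalamus, whose signal varied widely between these mice.

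**Figure D1:**
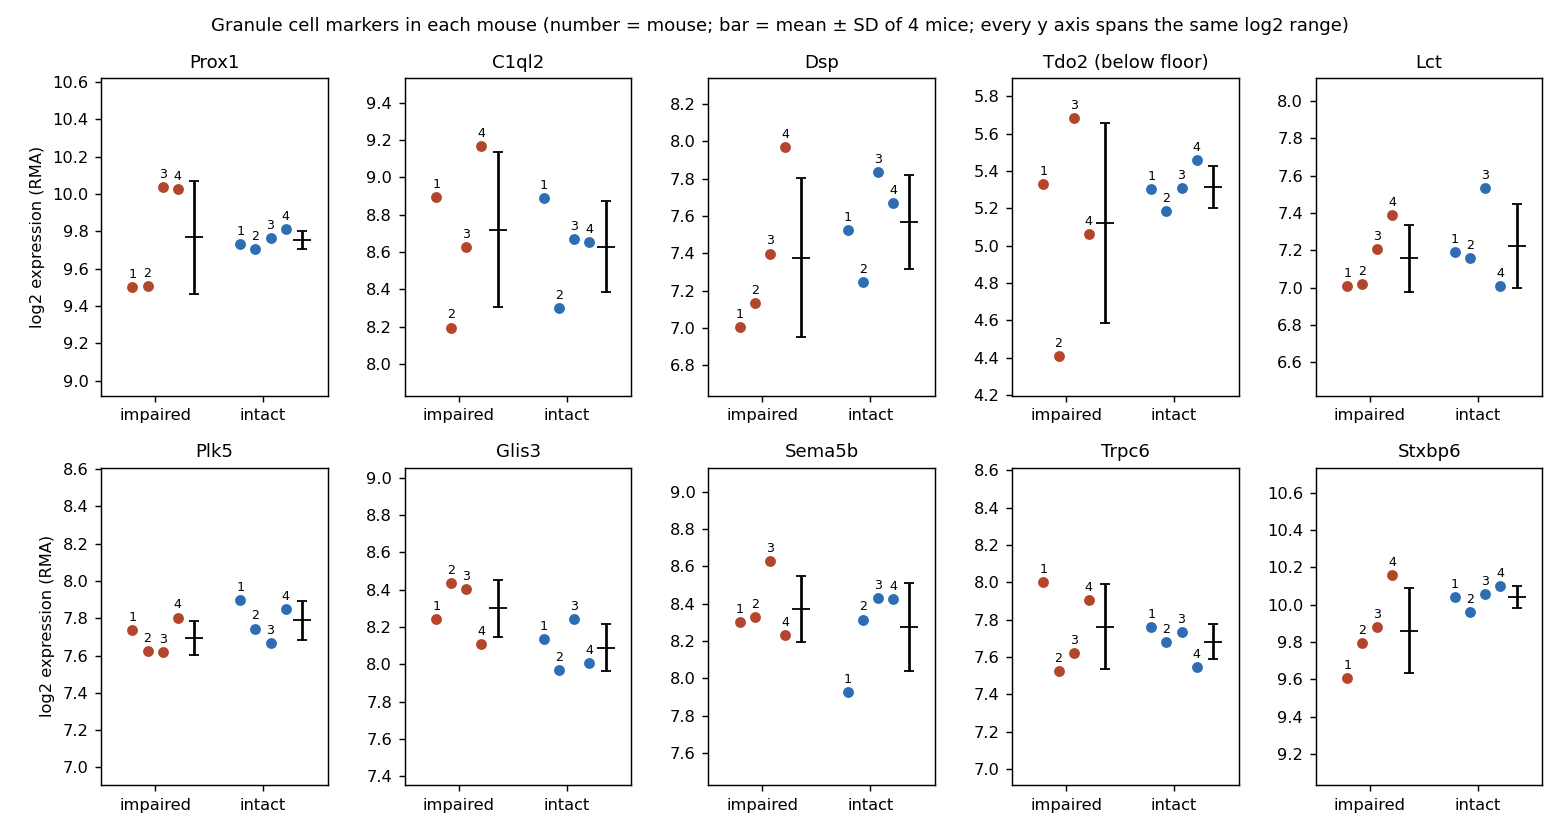
Log2 expression (y axis, RMA) of the 10 markers in the impaired and the intact group (x axis), with 1 point for each mouse, labelled with its number, and a bar for the mean ± SD of 4 mice. Every y axis spans the same number of log2 units, and in each panel the groups overlap. The impaired points of Prox1 lie at 9.50 to 10.04, to either side of the intact points at 9.70 to 9.81.

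C1ql2, a secreted C1q-like protein that granule cells release at mossy fibre synapses, where it binds kainate receptors, was among the most variable markers. Its values were 8.89, 8.20, 8.63 and 9.17 in impaired mice 1 to 4 and 8.89, 8.30, 8.67 and 8.65 in intact mice 1 to 4. Mouse 2 of each group was the lowest of its group, and impaired mouse 4 was the highest of all. The difference was 0.092 (95% interval -0.33 to 0.52, limma, adjusted p = 0.990). It came to -0.056 without impaired mouse 4 and 0.27 without impaired mouse 2. Its spread over the 8 mice (SD 0.32) was larger than that of 95.5% of all genes tested.

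The close relative C1ql3, also made by granule cells, differed by -0.030 (standard error 0.12). Its values were 10.21, 10.09, 9.82 and 10.33 in impaired mice 1 to 4 and 10.21, 9.93, 10.22 and 10.20 in intact mice 1 to 4. Of 5 genes of the C1q-like and cerebellin family above the floor, C1ql3 included, 0 passed, and the smallest p was that of Cbln4 (difference 0.17, standard error 0.093). Of 10 genes of the mossy fibre synapse, among them kainate receptor subunits and the vesicular zinc transporter Slc30a3, 0 passed and 6 had lower means in the impaired group. Grik4, a kainate receptor subunit that is most abundant in CA3, had the smallest p and differed by -0.27 (standard error 0.13, limma, adjusted p = 0.961).

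Stxbp6, also called amisyn, is a SNARE-binding protein that holds back vesicle fusion. It stood at 9.61, 9.79, 9.88 and 10.16 in impaired mice 1 to 4 and at 10.04, 9.96, 10.06 and 10.10 in intact mice 1 to 4. Impaired mice 1, 2 and 3 lay below every intact mouse and impaired mouse 4 above every one. The difference was -0.18 (standard error 0.11), or 1.13-fold lower in the impaired group (limma, unadjusted p = 0.134, adjusted p = 0.961), and it ran from -0.28 without impaired mouse 4 to -0.097 without impaired mouse 1. Of 7 SNARE proteins and partners above the floor, 0 passed, and the smallest p was that of Cplx1, a complexin (difference -0.094, standard error 0.094).

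Sema5b, a transmembrane semaphorin that guides neurites, had values of 8.30, 8.33, 8.63 and 8.23 in impaired mice 1 to 4 and of 7.93, 8.32, 8.43 and 8.42 in intact mice 1 to 4. Intact mouse 1 was the lowest and impaired mouse 3 the highest, and the other 6 mice lay between them. The difference was 0.098 (95% interval -0.19 to 0.39, limma, adjusted p = 0.968), and -0.018 without intact mouse 1. Of 7 genes for Sema5a, plexins and neuropilins above the floor, 0 passed, and Plxna3, a plexin receptor, had the smallest p (difference 0.22, standard error 0.13).

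Dsp encodes desmoplakin, a plakin that ties intermediate filaments to desmosomes in epithelia and that in the brain marks granule cells. It stood at 7.01, 7.13, 7.40 and 7.97 in impaired mice 1 to 4 and at 7.53, 7.24, 7.84 and 7.67 in intact mice 1 to 4. Impaired mouse 4 was the highest of all 8, and impaired mice 1 and 2 were the lowest. The difference was -0.19 (95% interval -0.63 to 0.24, limma, adjusted p = 0.961), or 1.14-fold lower in the impaired group, and it ran from -0.39 without impaired mouse 4 to -0.069 without impaired mouse 1. Its spread over the 8 mice (SD 0.34) exceeded that of 96.8% of all genes tested, the highest share among the markers. Of 7 desmosomal and plakin partners above the floor, 0 passed, with the smallest p for Jup, the gene of plakoglobin (difference 0.093, standard error 0.074).

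Trpc6, a cation channel opened by diacylglycerol, had values of 8.0, 7.53, 7.62 and 7.90 in impaired mice 1 to 4 and of 7.76, 7.68, 7.73 and 7.55 in intact mice 1 to 4. Impaired mice 1 and 4 were above all intact mice, and impaired mouse 2 was below all of them. The difference was 0.082 (95% interval -0.17 to 0.33, limma, adjusted p = 0.973). It came to 0.0018 once impaired mouse 1 was left out. All 4 other TRPC channels above the floor had lower means in the impaired group, and 0 passed. The smallest p was that of Trpc5 (difference -0.19, standard error 0.12).

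Plk5, a polo-like kinase family member whose kinase domain is incomplete and which is found in brain, varied least. It stood at 7.73, 7.62, 7.62 and 7.80 in impaired mice 1 to 4 and at 7.90, 7.74, 7.67 and 7.85 in intact mice 1 to 4. The 2 highest values were those of intact mice and the 2 lowest those of impaired mice, with overlap between. The difference was -0.094 (95% interval -0.28 to 0.094, limma, adjusted p = 0.961), and only 20.5% of all genes had a smaller spread over the 8 mice. Of 3 other polo-like kinases above the floor, 0 passed the adjustment, while Plk1, the mitotic member, and Plk3 had unadjusted p of 0.00708 and 0.0433. Plk1 differed by -0.44 (standard error 0.13) and Plk3 by 0.23 (standard error 0.10).

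Lct, the intestinal lactase gene whose transcript in the brain marks granule cells, had values of 7.01, 7.02, 7.21 and 7.39 in impaired mice 1 to 4 and of 7.19, 7.16, 7.54 and 7.01 in intact mice 1 to 4. Intact mice held both the highest and the lowest value. The difference was -0.066 (95% interval -0.35 to 0.21, limma, adjusted p = 0.987), and it was 0.038 without intact mouse 3.

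Tdo2, tryptophan 2,3-dioxygenase, opens the kynurenine pathway of tryptophan breakdown. It stood at 5.33, 4.41, 5.68 and 5.06 in impaired mice 1 to 4 and at 5.31, 5.19, 5.31 and 5.46 in intact mice 1 to 4. Impaired mouse 2 was the lowest and impaired mouse 3 the highest, and the 4 intact values lay between them. In a fit with no floor the difference was -0.19 (95% interval -0.69 to 0.30, limma, adjusted p = 0.964), at a level where intron controls are as bright. Of 12 listed genes of tryptophan metabolism, 6 were above the floor and 0 passed the adjustment, though 3 had an unadjusted p under 0.05, against 4.68% of all genes. That count was not tested. Kyat3, a kynurenine aminotransferase, differed by 0.32 (standard error 0.13) and Tph2, the serotonin-making hydroxylase that uses the same substrate, by 0.61 (standard error 0.24). Both were dim, with values of 5.29 to 6.13 for Kyat3 and 4.76 to 6.49 for Tph2, near the floor of 5.33. The third was Haao, which makes the precursor of quinolinic acid and was singled out after its value was seen, with a difference of 0.29 (standard error 0.13).

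**Figure D2:**
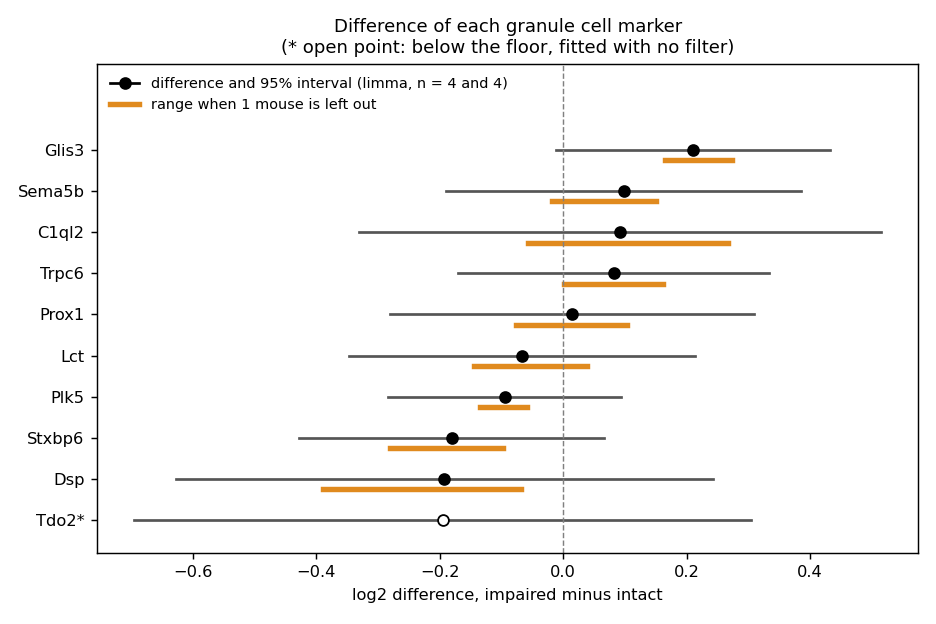
Log2 difference (x axis, impaired minus intact) of each marker (y axis) with its 95% interval from limma, and the range of the difference when each of the 8 mice is left out in turn. Every interval includes 0, and the leave-one-out range crosses 0 for Sema5b, C1ql2, Prox1 and Lct. Tdo2, drawn open, lay below the floor and was fitted without it.

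Variation between mice of the same group was mostly as large as the group differences. For Prox1, C1ql2, Dsp, Lct, Sema5b and Trpc6 the SD over 4 mice exceeded the size of the difference in both groups. For Stxbp6 it did so in the impaired group, with SDs of 0.23 and 0.058 beside a difference of -0.18, and for Plk5 in the intact group, with 0.091 and 0.10 beside -0.094. Glis3 alone of the 9 had a larger difference, 0.21, than either SD, 0.15 in the impaired and 0.13 in the intact group.

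The spread of several markers was wider among the impaired mice. The SD was larger in the impaired group for 6 of the 9 markers, against 51.1% of all genes tested. It was more than 2 times larger for 3 of them, Prox1, Stxbp6 and Trpc6, against 15.6% of all genes. The ratios of impaired over intact SD were 6.49 for Prox1, 3.96 for Stxbp6 and 2.40 for Trpc6, and the median ratio was 1.70 over the markers and 1.02 over all genes. This comparison was chosen after the values were seen, a ratio of SDs from 4 mice each is imprecise, and it was not tested.

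By mouse, impaired mouse 4 had the highest marker levels, with 7 of 9 markers above their mean over the 8 mice and an average deviation of 0.19. It held the highest value of C1ql2, Dsp and Stxbp6. Impaired mouse 2 had the lowest, with 2 of 9 above the mean and an average deviation of -0.16. Impaired mouse 1, at -0.081, held the lowest value of Prox1, Dsp and Stxbp6 but the highest of Trpc6. Among the intact mice the averages were 0.0077, -0.11, 0.10 and 0.0046 in mice 1 to 4, so that the range of the intact mice lay within that of the impaired mice.

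Markers varied together only in part. Over the 36 pairs of the 9 markers above the floor, Pearson's r across the 8 mice was positive for 21 and negative for 15, with a median of 0.17. The closest pair was Dsp and Stxbp6, with r = 0.903 (exact permutation p = 0.00146, adjusted over 36 pairs 0.0527) and Spearman's rho = 0.952 (exact permutation p = 0.00114, adjusted 0.0411). Impaired mice 1 and 2 were low and impaired mouse 4 high in both genes. After impaired mice 1 and 4, the farthest from the median of Dsp, were left out, r was 0.838 (exact permutation, adjusted p = 0.438). On deviations from the group means r was 0.919 (exact permutation, adjusted p = 0.188). The pair therefore passed by rank but not by Pearson's r once adjusted, and it passed in neither of these 2 checks. Both checks allow too few permutations for any pair alone to reach an adjusted p under 0.05 over 36 pairs. Their p-values therefore cannot decide, and they show only that r stayed at 0.838 and 0.919. How often other pairs of genes on these arrays varied as closely was not tested.

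The 5 other pairs with an unadjusted permutation p under 0.05 for r or rho did not pass the adjustment. C1ql2 and Trpc6 had r = 0.747 (exact permutation p = 0.0341, adjusted 0.274) and rho = 0.881 (exact permutation p = 0.00724, adjusted 0.130), and r was 0.549 without impaired mice 2 and 4. Dsp and Lct had r = 0.741 (exact permutation p = 0.0347, adjusted 0.274) and rho = 0.595 (exact permutation p = 0.132, adjusted 0.595), and r was 0.611 without impaired mice 1 and 4. Plk5 ran opposite to Glis3, with r = -0.764 (exact permutation p = 0.0300, adjusted 0.274) and rho = -0.762 (exact permutation p = 0.0368, adjusted 0.413), and r was -0.815 without impaired mouse 3 and intact mouse 1. Plk5 and Sema5b had r = -0.711 (exact permutation p = 0.0381, adjusted 0.274) and rho = -0.690 (exact permutation p = 0.0694, adjusted 0.500). Without impaired mouse 3 and intact mouse 1 that r was -0.101, so that the relation rests on those 2 mice. Prox1 and Dsp had r = 0.707 (exact permutation p = 0.0506, adjusted 0.303) and rho = 0.738 (exact permutation p = 0.0458, adjusted 0.413), and r was 0.879 without impaired mice 3 and 4, the farthest from the median of Prox1. In each case the mice left out were the 2 farthest from the median of the first gene. Chosen by the second gene instead, they left r at 0.389 for Prox1 and Dsp and at 0.282 for Dsp and Lct. By that choice r was 0.573 for C1ql2 and Trpc6, -0.866 for Plk5 and Glis3 and -0.101 for Plk5 and Sema5b.

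**Figure D3:**
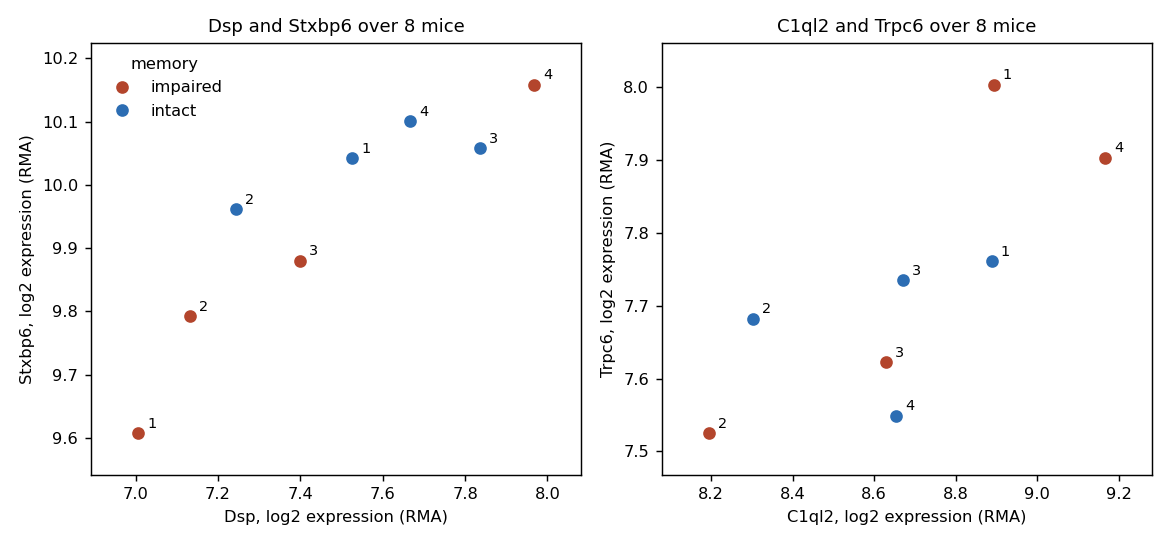
Log2 expression (RMA) of Dsp (x axis) against Stxbp6 (y axis) on the left and of C1ql2 (x axis) against Trpc6 (y axis) on the right, with 1 numbered point for each mouse, coloured by memory group. On the left, impaired mouse 1 is lowest in both genes (7.01 and 9.61) and impaired mouse 4 highest in both (7.97 and 10.16).

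Further granule cell markers outside the 10 gave 0 calls as well. Of 12, all above the floor, 9 had lower and 3 higher means in the impaired group, with a median difference of -0.079. The smallest p was that of Rfx3, a winged helix factor (difference -0.15, standard error 0.10), followed by Lrrtm4, a synaptic adhesion protein (difference -0.12, standard error 0.082). Calb1, which encodes calbindin, stood at 8.63, 8.87, 8.25 and 8.37 in impaired mice 1 to 4 and at 8.70, 8.50, 8.50 and 8.69 in intact mice 1 to 4. Its difference was -0.065 (95% interval -0.35 to 0.22, limma, adjusted p = 0.990). Impaired mouse 2 was the highest and impaired mice 3 and 4 the lowest, which is not the order of Prox1 or Dsp. Calb1 is also made by CA1 pyramidal cells and some interneurons.

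Of 10 genes known to respond to seizure activity in granule cells, Calb1 included, 0 passed. Means were higher in the impaired group for 8 and lower for 2, Calb1 and Penk, and 52.9% of all genes were lower. Arc, an immediate early gene, differed by 0.27 (standard error 0.16) and the neurotrophin Bdnf by 0.20 (standard error 0.12), and impaired mouse 1 had the highest list average, 0.26, against at most 0.094 in the others. Impaired mice 2 to 4 averaged -0.0080, -0.15 and 0.0087, and the intact mice -0.18 to 0.094. Of 6 genes of progenitors and immature neurons above the floor, 0 passed, and 5 had higher means in the impaired group. The smallest p was that of Sox4, a transcription factor of immature neurons and the 1 gene with a lower mean (difference -0.10, standard error 0.092).

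**Figure D4:**
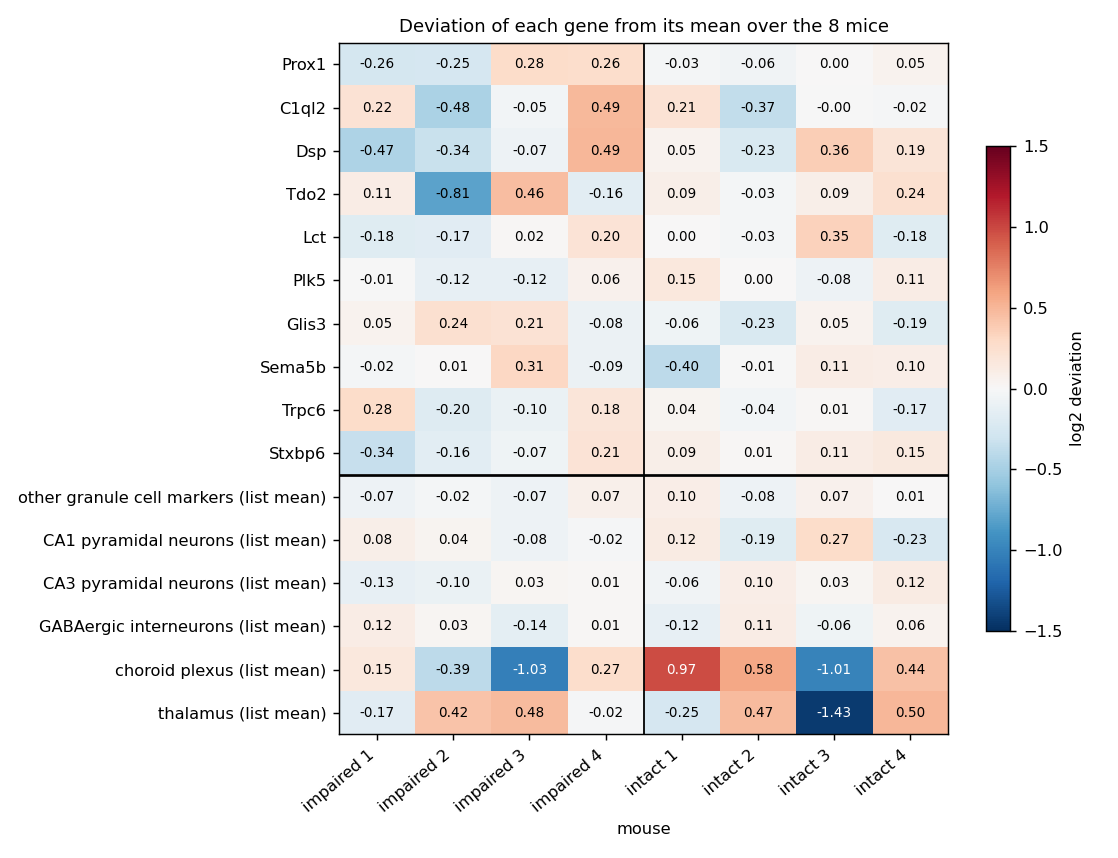
Log2 deviation (colour and printed value) of each marker, and below the line of the mean of 6 other marker lists, from its average over the 8 mice, with mice on the x axis. Impaired mouse 4 is above average in Dsp and C1ql2 (0.49 in both), while the choroid plexus and thalamus lists vary most, down to -1.43 in intact mouse 3.

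Signal of choroid plexus and thalamus differed more between these mice than the granule cell markers did. That of 8 markers of neighbouring cortex and subiculum did not when averaged over the list. Its average deviation ran from -0.12 to 0.11 over the mice, beside -0.16 to 0.19 for the 9 markers above the floor. Single genes of that list had standard errors of the difference from 0.091 for Nts to 0.40 for Foxp2. Those of the 9 markers ran from 0.085 for Plk5 to 0.20 for Dsp. Over 12 choroid plexus markers, all with lower means in the impaired group, the average log2 level was 6.67 to 7.96 in the impaired and 6.69 to 8.67 in the intact mice, and over 12 thalamus markers, all with higher means, it was 8.80 to 9.45 and 7.54 to 9.47. None of these 24 passed. Of their defining markers, Ttr averaged 12.1 and 12.7, and Shox2 7.27 and 6.48, in impaired and intact mice. The lowest Ttr value was 9.79, in impaired mouse 3. The lowest Shox2 value was 4.39, in intact mouse 3, which is below the floor and below the median of the intron controls. The average of the thalamus list in that mouse was 7.54. Impaired mouse 3 and intact mouse 3 were low in plexus signal and intact mouse 3 in thalamus signal. When both list averages entered the fit as covariates, an alternative chosen once the data had been seen, the difference of C1ql2 was 0.36, that of Trpc6 0.25 and that of Sema5b -0.10, and 0 markers passed. With the 2 mice of low plexus signal left out together, 0 markers passed.

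Markers of other hippocampal neurons covered narrower ranges than those of choroid plexus and thalamus. The average level was 8.42 to 8.58 in impaired and 8.26 to 8.77 in intact mice for 10 CA1 markers, and 7.19 to 7.34 and 7.26 to 7.43 for 8 CA3 markers. For the 12 further granule cell markers it was 8.85 to 9.0 and 8.85 to 9.03. Over the 9 markers above the floor it was 8.17 to 8.53 and 8.23 to 8.44, a narrower span than that of the CA1 list. Impaired mouse 4, the highest on average over the 9 markers above the floor, was at -0.018 in the CA1 list and at 0.012 in the CA3 list relative to the 8-mouse average. In the 12 further granule cell markers it was at 0.072, below intact mouse 1 at 0.10. It was the highest of the 8 mice in markers of meningeal fibroblasts, at 0.30, and above average in those of choroid plexus, at 0.27, and of ependymal cells, at 0.17. Intact mice 1, 2 and 4 were higher in choroid plexus, at 0.97, 0.58 and 0.44, and intact mouse 2 in ependymal cells, at 0.18. Over the 9 markers these intact mice averaged 0.0077, -0.11 and 0.0046. The part of these other tissues in the marker levels of impaired mouse 4 was not tested. Over all 27 lists, which held 203 genes above the floor and none of the 10 markers, 0 passed the adjustment and 3.94% had an unadjusted p under 0.05.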

How the data were processed

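Hippocampal RNA of 4 impaired and 4 intact mice was measured on 1-colour Affymetrix arrays. The WT Pico kit amplified 1 ng of RNA from each mouse, per the labels' protocols. The deposited values are log2 expression that the authors made with RMA, per the submitters' processing notes; RMA compresses differences of dim genes. Its version and the genome build were not given in the sources used here. Probe sets were named from the platform's table, and of 29129 probe sets 19572 were targets with 1 gene. For genes with several probe sets the brightest was used. The dimmest 25% of genes were left out, which kept 14628. No 2 arrays were identical.

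The 2 groups were compared by limma's lmFit and eBayes (limma 3.58.1, R 4.3.3; two-sided, Benjamini-Hochberg over all genes tested), without a replicate block. The fit was checked on simulated data with planted differences larger than that of any marker, so differences as small as the markers' were not covered. Array pairs correlated at 0.986 to 0.992 across all named genes. Nothing in the labels beyond "biological replicate" says how the mice were chosen. The markers and lists were chosen with earlier results of these data known. Named were the 10 markers, at most 2 genes of each other list with the smallest p, and Calb1, C1ql3, Ttr and Shox2, while Haao and Scg5 were named after their values were seen. Correlations between markers were tested by exact two-sided permutation of 8 mice. Alternatives were other normalizations, filters, priors, weights and probe set rules, covariates, the block and leaving out mice. Scan batches were not used here.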

Additional observations from a re-analysis of the deposited data

How the results depend on the processing

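Under 20 alternative settings, 2 of them added after seeing the data, 0 of the markers tested passed in limma. Over all genes the count was 0 except 1 under limma's trended, robust prior (Scg5, not a marker), and genes with an unadjusted p under 0.05 numbered 434 to 963. Glis3, Trpc6, Dsp, Plk5 and Stxbp6 kept their direction in every setting. With the plexus covariate Prox1 was -0.012 and Sema5b -0.0076, with both covariates -0.047 and -0.10, and with array weights Prox1 was -0.0054. Without both mice of low plexus signal Prox1 was -0.072 and Lct 0.021, and with the thalamus covariate Lct was 0.010. Leaving out single mice gave -0.075 to 0.10 for Prox1, -0.056 to 0.27 for C1ql2, -0.14 to 0.038 for Lct and -0.018 to 0.15 for Sema5b. The cause was not tested. The median difference of the markers ran from -0.071 without impaired mouse 4 to 0.10 without impaired mouse 2. With the replicate number as a block, 0 genes passed and no marker changed direction. Same-numbered mice did not deviate together (correlations 0.028, 0.033, -0.048 and -0.10, and 0 mice correlated best with their own number), so the numbers were not taken as pairs. Of the 36 marker pairs, 0 passed on deviations from group means or without the 2 farthest mice. Both checks allow too few permutations for any pair alone to pass the adjustment. Without the 2 farthest mice the smallest adjusted permutation p was 0.05, for Prox1 and Stxbp6. The number of arrays limits precision, most of all for dim Tdo2.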
